A study of Mus musculus with 6 samples.

Results

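Hyou1, Dnajc3, Dnajb9, Canx and Pdia4 encode 5 proteins that help newly made proteins fold in the endoplasmic reticulum (ER), 5 of the 8973 genes named on the arrays. They were chosen by their 24-hour ratios in these same libraries, so their 24-hour values and the 24-hour minus 6-hour difference are given as a description, with no test. Only the 6-hour ratios were free of that choice, but the test at 6 hours takes its spread from the arrays of both times. Each gene had 1 row among the 21446 rows of the value table, and no row listed one of them together with another gene.

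The arrays compared bone RNA of C57BL/6J-Ghrhr<lit> (lit/lit) mice, which carry a disrupted receptor for growth hormone releasing hormone and so lack normal growth hormone (GH). All animals, controls included, carried the lit/lit genotype and were aged 4 weeks, so the response is that of GH-deficient bone and no mice with normal GH were compared. GH was given once, under the skin, at 4 mg per kg body weight, and controls received phosphate-buffered saline (PBS). Each sample pooled 2 animals. At 6 hours 3 arrays (replicates 1 to 3) and at 24 hours 3 other arrays, from other animals (replicates 4 to 6), each set a Cy5-labelled GH pool against a Cy3-labelled PBS pool. Every value below is the log2 ratio of GH over PBS, so that 0 is no difference. The direction is likely from the dyes in the labels but is not stated, and no dye swap was labelled. Since GH was always in Cy5, testing a mean ratio against 0 does not separate GH from a gene's dye bias. A dye bias of constant size would drop out when the times are subtracted. Words such as rose, fell, higher and lower therefore describe the ratio only.

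Proteins bound for secretion enter the ER unfolded and are held by the HSP70 chaperone BiP (Hspa5), whose cycle is driven by J-domain cochaperones and nucleotide exchange factors. Sugar-bearing proteins are also held by the lectins calnexin and calreticulin, while protein disulfide isomerases form and reshuffle disulfide bonds. When unfolded proteins build up, the sensors ATF6, IRE1 and PERK raise many of these genes together, in part through a promoter sequence called the ER stress response element (ERSE). Bone depends on this machinery because osteoblasts secrete large amounts of collagen.

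The promoters are shown because the 5 genes were low on the same arrays. In the RefSeq promoter table (build GRCm38.p6; 250 bases before to 50 after the start), 4 of the 5 genes were found. An exact ERSE, CCAAT followed after 9 bases by CCACG on either strand, was present in Canx (chr11:50325624-50325923, minus strand) and in Dnajc3 (chr14:118937682-118937981, plus strand). It lay from -145 to -127 relative to the start in Canx and from -105 to -87 in Dnajc3. Capitals mark its 2 conserved parts in the sequences, given 5′ to 3′.
Canx: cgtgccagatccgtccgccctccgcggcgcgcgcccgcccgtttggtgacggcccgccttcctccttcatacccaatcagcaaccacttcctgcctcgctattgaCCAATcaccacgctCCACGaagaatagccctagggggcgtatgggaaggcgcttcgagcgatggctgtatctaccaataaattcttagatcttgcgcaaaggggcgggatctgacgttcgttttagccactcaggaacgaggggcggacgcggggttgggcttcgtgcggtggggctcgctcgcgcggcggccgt
Dnajc3: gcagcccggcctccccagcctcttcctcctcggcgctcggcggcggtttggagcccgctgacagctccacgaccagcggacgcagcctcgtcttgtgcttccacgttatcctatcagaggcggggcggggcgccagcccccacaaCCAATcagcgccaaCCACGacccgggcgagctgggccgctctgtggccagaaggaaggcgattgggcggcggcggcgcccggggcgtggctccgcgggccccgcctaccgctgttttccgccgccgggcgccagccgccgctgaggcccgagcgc
Among all 32851 promoters in the table, 0.119% held this ERSE. Among 115 other genes of the ER lists described below, 8 (6.96%) held it, against 0.137% of all 27025 genes. Those 8 were Calr, Creld2, Derl3, Ero1b, Hsp90b1, Hspa5, Pdia6 and Syvn1. No exact match to the ERSE was present in the promoter windows of Dnajb9 and Pdia4. All 4 promoters held CCACG (32.8% of all promoters and 65.2% of the 115 other ER list genes) and CCAAT (37.4% and 53.9%). These are also the parts of the ERSE. None of the 4 held ATTGG followed after 1 base by CCACG (0.0365% of all promoters), TGACGTGG (0.676%) or TGACGTCA (1.79%). A match is a description of letters, not evidence that a factor binds there.

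Some arrays stood apart. Replicate 1 correlated with the other arrays at 0.223 to 0.359 over all rows, whereas the 10 other pairs correlated at 0.556 to 0.817. The SD over all rows ran from 0.466 on replicate 1 to 0.913 on replicate 6. The prefix of the output file names was shared by replicates 1, 2, 3 and 5 and differed for replicates 4 and 6. On most arrays the ratios also depended on the place of the row in the table.

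At 6 hours, none of the 5 genes passed the test against 0. By limma with Benjamini-Hochberg adjustment over 19326 rows and a threshold of 0.05, 3.38% of rows passed in either direction. At 24 hours all 5 genes were below 0 on all 3 arrays, and on each gene the 3 arrays at 24 hours lay below the 3 at 6 hours. Of the 17414 rows with 6 values, 3.73% were ordered in that way and 31.1% were below 0 on all 24-hour arrays. Since the genes were chosen on their 24-hour values, nothing is read from these shares. The median of the 5 means was -0.12 at 6 hours and -0.61 at 24 hours, and that of the differences was -0.70. Over all rows the corresponding medians were -0.02, 0 and 0.014.

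**Figure D1:**
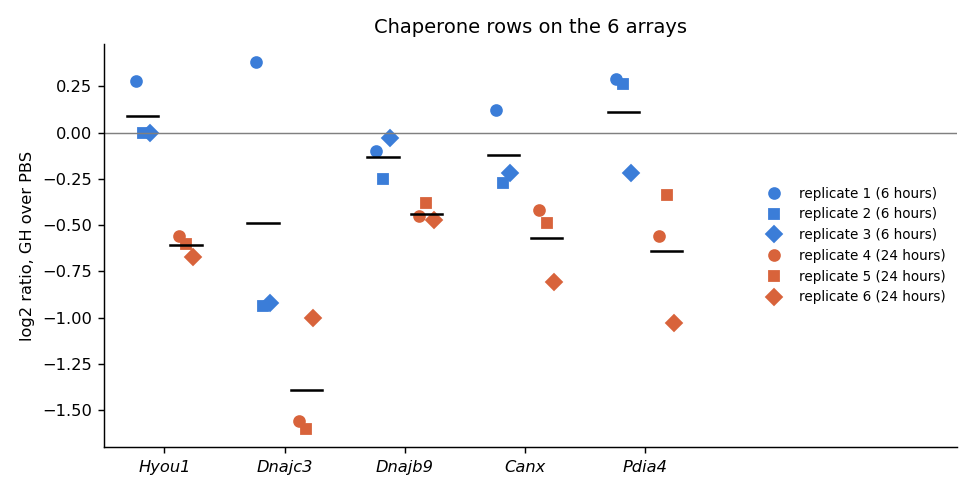
Log2 ratio of GH over PBS (y axis) of the 5 chaperone rows (x axis), 1 point per array, 6-hour arrays in blue and 24-hour arrays in orange, with black lines for the means of 3 arrays. For each gene the orange points lie below the blue ones, by as little as 0.06 for Dnajc3 and as much as 0.56 for Hyou1.

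Hyou1, a large HSP70-like protein that exchanges nucleotide on BiP, had ratios of 0.28, 0.00 and 0.00 at 6 hours and of -0.56, -0.60 and -0.67 at 24 hours. The groups were separated by a gap of 0.56. However, the rows near Hyou1 on an assumed grid of row numbers, described below, were as low at 24 hours. With the median of these neighbours subtracted, its 24-hour mean was 0.07 and the groups overlapped. The 6-hour mean was 0.09 ± 0.16 (SD, n = 3; limma adjusted p = 0.639). At 24 hours the mean was -0.61 ± 0.06 (SD, n = 3), or 1.52-fold lower with GH, and the difference between the times was -0.70 ± 0.16 (limma standard error), all before that subtraction.

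Of the 2 J-domain cochaperones of BiP among these genes, Dnajc3 had the lower ratios. Dnajc3, which also restrains kinases that halt translation, had ratios of 0.38, -0.94 and -0.92 at 6 hours and of -1.56, -1.60 and -1.0 at 24 hours. Replicates 2 and 3 at 6 hours were already nearly as low as replicate 6 at 24 hours, and replicate 1 stood apart from both. The 6-hour mean of -0.49 ± 0.76 (SD, n = 3) did not pass (limma adjusted p = 0.309). Without replicate 1 it was -0.93 and passed (limma adjusted p = 0.0457), and with estimated array weights it was -0.83 (limma adjusted p = 0.0128). Those fits called more rows of any gene at 6 hours, 1727 without replicate 1 and 7660 with array weights, against 654. Over all 19 alternative settings the limma adjusted p of Dnajc3 at 6 hours ranged from 0.0128 to 0.759. At 24 hours the mean was -1.39 ± 0.33 (SD, n = 3), 2.61-fold lower. The difference between the times was -0.89 ± 0.40 (limma standard error), and without replicate 1 it was -0.46.

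Dnajb9, which hands misfolded proteins to degradation and keeps IRE1 in check, had ratios of -0.10, -0.25 and -0.03 at 6 hours and of -0.45, -0.38 and -0.47 at 24 hours. All 6 arrays were below 0, with the 24-hour arrays the lower, and the gap between the groups was 0.13. The 6-hour mean was -0.13 ± 0.11 (SD, n = 3; limma adjusted p = 0.481). The 24-hour mean was -0.44 ± 0.05 (SD, n = 3), 1.35-fold lower and the closest to 0 of the 5. The difference was -0.31 ± 0.16 (limma standard error).

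Canx, the membrane-bound lectin calnexin, had ratios of 0.12, -0.27 and -0.22 at 6 hours and of -0.42, -0.49 and -0.81 at 24 hours. As for Dnajc3, replicate 1 was the only array above 0. The lowest array for Canx was replicate 6. The 6-hour mean was -0.12 ± 0.21 (SD, n = 3; limma adjusted p = 0.61). The 24-hour mean was -0.57 ± 0.21 (SD, n = 3), 1.49-fold lower, and the difference was -0.45 ± 0.20 (limma standard error).

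Pdia4, a disulfide isomerase with several catalytic domains, had ratios of 0.29, 0.26 and -0.22 at 6 hours and of -0.56, -0.34 and -1.03 at 24 hours. Replicate 3 at 6 hours and replicate 5 at 24 hours were separated by 0.12, less than the spread within either time. The 6-hour mean was 0.11 ± 0.28 (SD, n = 3; limma adjusted p = 0.715). The 24-hour mean was -0.64 ± 0.35 (SD, n = 3), 1.56-fold lower, and the difference was -0.75 ± 0.25 (limma standard error).

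Without replicate 1 the 6-hour means were 0.00 for Hyou1, -0.14 for Dnajb9, -0.24 for Canx and 0.02 for Pdia4. The differences between the times were then -0.61, -0.29, -0.33 and -0.66. Every array of the later time lay below every array of the earlier time on these genes. Leaving out an array could therefore not change the sign of a difference, and nothing is read from it.

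Set among all rows tested, the 24-hour means were low but not at the extreme. The share of rows with a lower 24-hour mean was 3.3% for Dnajc3, 15.4% for Pdia4, 16.5% for Hyou1, 17.4% for Canx and 22.6% for Dnajb9. In the difference between the times, 2.1% of rows lay below Dnajc3, 3.4% below Pdia4, 4.1% below Hyou1, 9.7% below Canx and 16.9% below Dnajb9. Were the ratios PBS over GH, these would be the shares of rows with a higher value. In that difference limma called 0.0% of the 19326 rows (0 rows at an adjusted p under 0.05, and 585 at an unadjusted p under 0.05). Over the 6 arrays, the 10 pairs of chaperone rows had Pearson correlations of 0.56 to 0.91, with a median of 0.81. This is a description, as the 5 rows share their arrays and were chosen together.

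Over all rows 12.4% were called higher and 8.87% lower at 24 hours by limma, 4116 calls in all. Fits without 1 array called 0 rows without replicate 6, 979 without replicate 4, 2374 without replicate 2 and 2114 without replicate 3. The differing file name prefix was found on 24-hour arrays only. With the prefix as a covariate the 24-hour mean therefore rested on replicate 5 alone, and the calls of that fit are not compared here. At 6 hours, in place of 654 rows, 1727 were called without replicate 1, 111 without replicate 6 and 0 without replicate 2, 3 or 4. Of the 654 rows 531 were higher and 123 lower. The split was more even in some other fits, with 1544 higher and 688 lower after quantile normalization. It was 4066 and 3594 with array weights, and 1059 and 668 without replicate 1. In others it was much the same, such as 569 and 132 after centring each array and 408 and 88 with a robust fit.

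The ratios also depended on where a row stood in the table. The row numbers run to 22575, which is 105 times 215. The mean ratio of a row correlated with that of the row 215 numbers on (Pearson r = 0.444 over rows, which are not independent). With its next row it correlated at 0.415, and with the row 105 numbers on at -0.29. Of the divisors of 22575 tried, 215 was taken because the correlation at that distance was the highest. The value at 215 is therefore no separate support for the grid. Read as a grid of 105 rows and 215 columns, the ratios of replicates 2, 3, 4 and 6 fell most from the first columns to the last. The sources used here do not state that the row number is the spot's place on the array. On replicate 4 the median was 0.43 in the first 20 columns and -0.60 in the last 20, and on replicate 6 it was 0.57 and -0.71. Replicates 2 and 3 went from 0.42 to -0.40 and from 0.33 to -0.54. Replicates 1 and 5 differed least between the ends, with 0.20 against -0.03 and 0.33 against 0.04. No array declined throughout: on each, the last column was higher than some columns before it. Columns accounted for 6.9% of the variance on replicate 1 and for 46.5% on replicate 4.

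**Figure D2:**
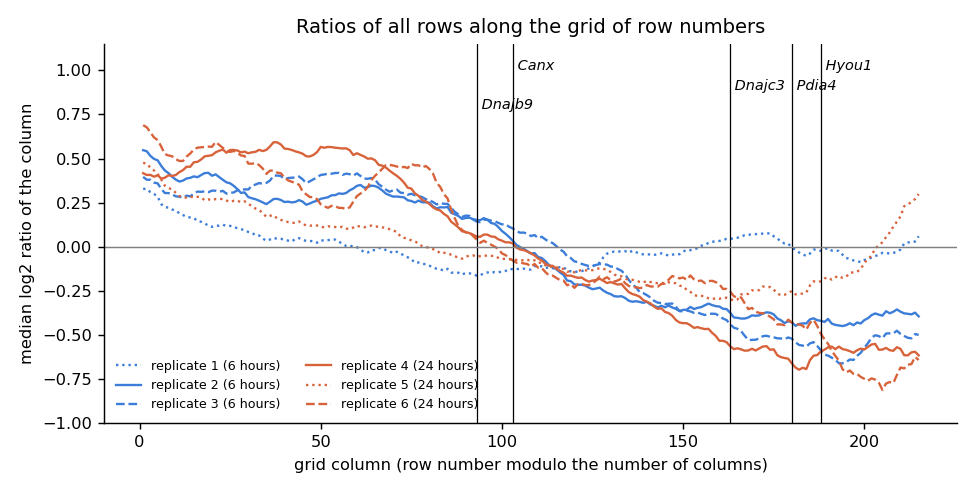
Median log2 ratio of all rows in each of 215 grid columns (y axis; running mean over 9 columns) along the column number (x axis), 1 line per array, blue for 6 hours and orange for 24 hours, with vertical lines at the columns of the 5 chaperone rows. Hyou1, Pdia4 and Dnajc3 stand in columns 188, 180 and 163, where most arrays are below 0, and Canx and Dnajb9 in columns 103 and 93, near the middle.

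The chaperone rows were therefore also set against their neighbours, by subtracting on each array the median of the rows within 4 grid positions. This setting was chosen after seeing the data. For Hyou1 the neighbours averaged -0.68 at 24 hours, as low as the gene itself. Hyou1 minus its neighbours was -0.02, 0.71 and 0.71 at 6 hours and 0.33, -0.15 and 0.02 at 24 hours. Its 24-hour mean thus turned from -0.61 to 0.07. The other 4 genes stayed below 0 on all 24-hour arrays, as did 30.7% of all rows with 6 values treated alike. Since the genes were chosen on their 24-hour values, nothing is read from this share.

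Dnajc3 minus its neighbours averaged -0.15 at 6 hours and -0.93 at 24 hours, with its 3 ratios at 24 hours from -1.08 to -0.66. Pdia4 went from 0.31 to -0.43 and Canx from -0.10 to -0.38. In these 3 genes the arrays of the times did not overlap, as in 4.56% of all rows treated alike. Dnajb9 averaged -0.20 at 6 hours and -0.44 at 24 hours, and its groups overlapped. The median of the 5 means at 24 hours became -0.43. With neighbours within 8 positions the 24-hour means were 0.00 for Hyou1, -0.88 for Dnajc3, -0.53 for Dnajb9, -0.43 for Canx and -0.39 for Pdia4.

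**Figure D3:**
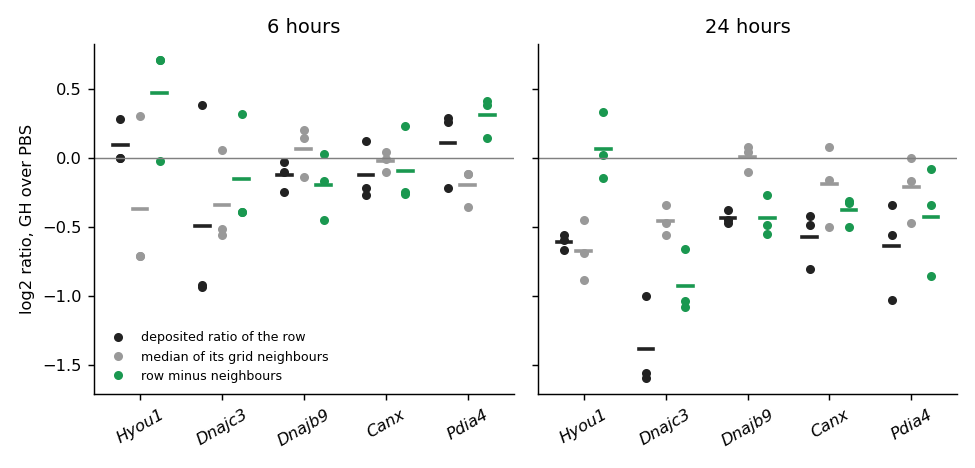
For each chaperone gene (x axis), the deposited log2 ratio (black), the median of the rows within 4 grid positions (grey) and the difference between them (green), for 3 arrays at 6 hours (left) and 3 at 24 hours (right); short bars are means. At 24 hours the grey points of Hyou1 lie beside the black ones and its green mean is 0.07, while the green mean of Dnajc3 is -0.93.

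A single row also carries its own uncertainty. For 1809 genes with at least 2 complete rows, the mean ratios of the first and second row correlated at 0.0333 over genes, and at 0.0665 after the neighbours within 4 positions were subtracted. Each chaperone gene was read from 1 row, so none could be checked against a second row of its own. Channel intensities were not analysed here, so how far each spot stood above background is unknown. Bone is a mixture of cells, and fewer cells of a type cannot be told apart from less RNA per cell.

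The rest of the secretory pathway was described with 8 lists of 177 genes, the 5 chaperones left out, of which 137 genes were measured on 173 rows. At 24 hours 12 rows (6.94%) rose and 15 (8.67%) fell by limma, against 12.4% and 8.87% of all rows. At 6 hours 3 rows passed. In place of these 27 rows, other fits called 0 without replicate 6, 3 without replicate 4, 13 without replicate 2, 15 without replicate 3 and 15 without replicate 5. Of the 17 rows called at 24 hours that are named here, each lost its call under 2 to 14 of 18 alternatives, and 17 lost it without replicate 6. The 18 include the prefix fit, in which replicate 5 alone gave the 24-hour mean. No row of these lists passed in the difference between the times, where the adjusted p of each row named here was at least 0.98.

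**Figure D4:**
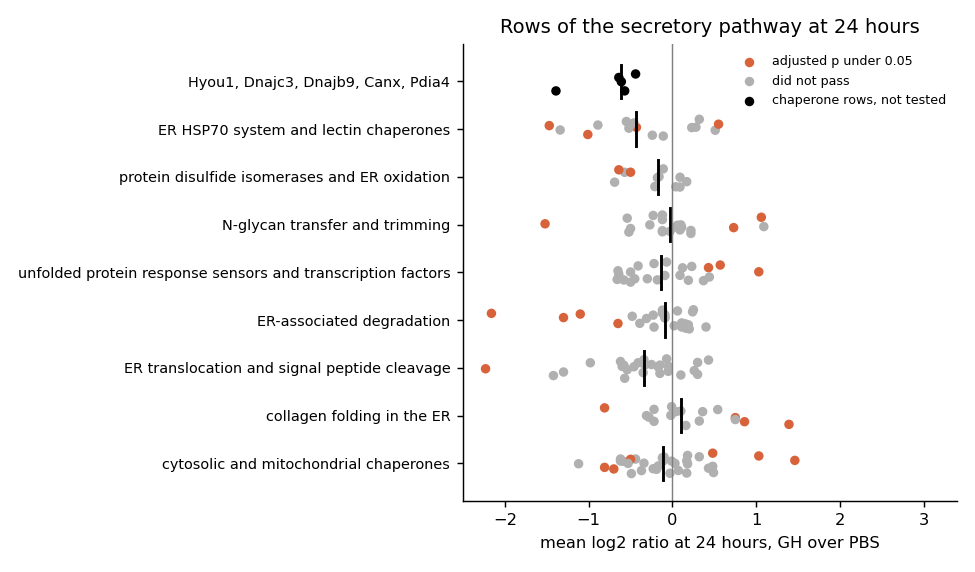
Mean log2 ratio at 24 hours (x axis) of each row of 8 secretory pathway and chaperone lists (y axis), 1 point per row, orange where limma's adjusted p was under 0.05, grey otherwise, black for the 5 chaperone rows, with a line at each median. The chaperone rows' median of -0.61 is beside -0.43 for the ER HSP70 and lectin list and 0.10 for the collagen folding list.

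The partners of the 5 chaperones in the ER HSP70 and lectin list had 15 rows of 12 genes, of which 1 rose and 3 fell at 24 hours. The median was -0.28 at 6 hours and -0.43 at 24 hours, but -0.08 at 24 hours with the neighbours subtracted. Dnajb11, another J-domain cochaperone of BiP, had ratios of -0.18, 0.00 and 0.01 at 6 hours and of -0.36, -0.45 and -0.47 at 24 hours. It fell at 24 hours by 0.43 on the log2 scale (limma adjusted p = 0.0407), and its mean was also -0.43 with the neighbours subtracted. That call was lost under 10 of 18 alternatives, among them scaling, exact zeros as missing and the prefix, with limma adjusted p from 0.0276 to 0.416. Hspa13, an HSP70-like ATPase of the ER, had a 24-hour mean of -1.47 (limma adjusted p = 0.0306), and Dnajc25, a J-domain protein, one of -1.01 (limma adjusted p = 0.0173).

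BiP itself, the protein that Dnajc3, Dnajb9 and Hyou1 act on, did not pass. The 3 rows of Hspa5 had 24-hour means of -0.24, -0.89 and -0.52, with limma adjusted p of 0.307, 0.0957 and 0.0725, and after subtraction of the neighbours 0.26, -0.30 and 0.11. Without replicate 1 the second and the third of these rows passed, with limma adjusted p of 0.0482 and 0.0454. Hsp90b1, the HSP90 of the ER, scattered from -2.94 on replicate 6 to -0.01 on replicate 5 at 24 hours (mean -1.34, limma adjusted p = 0.144). Calr, the soluble lectin partner of calnexin, was above 0 on all 6 arrays, with a 24-hour mean of 0.23 (limma adjusted p = 0.168). Its direction therefore differed from that of Canx, but with the neighbours subtracted its mean was -0.21.

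Of the 12 rows of disulfide isomerases and ER oxidation genes other than Pdia4, 0 rose and 2 fell at 24 hours, and the median was -0.17. The 2 were Tmx3 and Txndc11, thioredoxin-like proteins of the ER, with 24-hour means of -0.50 (limma adjusted p = 0.0359) and -0.64 (limma adjusted p = 0.0484). With the neighbours subtracted these became -0.18 and -0.01. The abundant isomerases P4hb and Pdia3, the latter the partner of calnexin and calreticulin, had 24-hour means of 0.09 (limma adjusted p = 0.548) and -0.21 (limma adjusted p = 0.191).

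Sensors and transcription factors of the unfolded protein response had 22 rows, of which 3 rose and 0 fell at 24 hours, with a median of -0.13. Xbp1, the factor activated by IRE1, had ratios of 0.21, -0.42 and -0.09 at 6 hours and of -0.49, -1.18 and -0.25 at 24 hours. All 3 arrays at 24 hours were below 0, but the mean of -0.64 did not pass (limma adjusted p = 0.0725) and was -0.03 with the neighbours subtracted. Atf4, the factor downstream of PERK, averaged -0.22 and Eif2ak3, which encodes PERK, -0.07. The 2 rows of Atf6 averaged -0.18 and -0.58 and the 3 rows of Ern1, which encodes IRE1, -0.09, 0.44 and -0.66. Those that rose included Creb3, a transcription factor held in the ER membrane, with a 24-hour mean of 1.03 (limma adjusted p = 0.0189). With the neighbours subtracted it became 0.60 and did not pass (limma adjusted p = 0.0716). At 6 hours Creb3 averaged 0.85 (limma adjusted p = 0.0571). Ppp1r15a, which reverses the translational block set by PERK, had a 24-hour mean of 0.57 (limma adjusted p = 0.0293), and 0.12 with the neighbours subtracted. Ddit3, Herpud1 and Pdia6 had no row under a single gene name among the rows tested.

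Among genes that carry misfolded proteins to degradation, 0 of 26 rows rose and 4 fell, with a median of -0.09. Rnf139, a ubiquitin ligase of the ER membrane, had a 24-hour mean of -2.16 (limma adjusted p = 0.0255). For Edem3, a mannosidase of this route, one row averaged -1.10 (limma adjusted p = 0.0279), or -0.68 with the neighbours subtracted, and the other -0.22 (limma adjusted p = 0.214). The translocation genes had 26 rows, 0 higher and 1 lower, with a median of -0.33. The 1 lower row was of Sec62, which helps proteins into the ER, at -2.23 (limma adjusted p = 0.0197), while its other row averaged -0.62 (limma adjusted p = 0.181). Srp72, of the particle that brings ribosomes to the ER, had rows at -1.30 (on 4 arrays) and 0.43, neither of which passed.

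Of the 21 rows of N-glycan transfer and trimming, which prepares the sugars read by calnexin, 2 rose and 1 fell, with a median of -0.03. Stt3a, the catalytic subunit of the oligosaccharyltransferase, had a 24-hour mean of 1.06 (limma adjusted p = 0.0237), or 0.65 with the neighbours subtracted. Its 6-hour mean was 0.93 (limma adjusted p = 0.0676). Magt1, an accessory subunit, had one row at -1.52 (limma adjusted p = 0.0464) and one at 0.06. With the neighbours subtracted the first became -0.95 and did not pass (limma adjusted p = 0.0865).

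Collagen folding genes had the highest medians of the 8 lists, 0.45 at 6 hours and 0.10 at 24 hours. Of 17 rows 3 rose and 1 fell at 24 hours. The 3 rows of Plod1, a lysyl hydroxylase of collagen, averaged 0.75, 1.39 and 0.75 at 24 hours, with limma adjusted p of 0.034, 0.0123 and 0.128. The first was 0.46 with the neighbours subtracted, and the second also passed at 6 hours (mean 1.10, limma adjusted p = 0.0448). P3h3, a prolyl hydroxylase family member, averaged 0.86 (limma adjusted p = 0.0195). Serpinh1, the collagen chaperone, averaged 0.54 and did not pass (limma adjusted p = 0.0654). With the neighbours within 4 positions subtracted it averaged 1.11 and passed (limma adjusted p = 0.0141).

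Chaperones outside the ER had 34 rows, of which 3 rose and 3 fell at 24 hours, with a median of -0.11. Hsp90aa1, the inducible cytosolic HSP90, had rows at -0.81 (limma adjusted p = 0.02) and -1.12 (limma adjusted p = 0.0975). With the neighbours subtracted these became -0.41 and -1.59, and both passed (limma adjusted p of 0.0465 and 0.0364). Cct4, a subunit of the cytosolic chaperonin, had rows at 1.03 (limma adjusted p = 0.0123), 0.17 and -0.59. Its first row also passed at 6 hours (mean 1.14, limma adjusted p = 0.0312). With the neighbours subtracted that row averaged 0.45 at 24 hours and did not pass (limma adjusted p = 0.0501). Rows of the same gene thus differed in sign here as well.

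Markers of cell types in bone and marrow were read on the same arrays as ratios, since levels were not analysed here, so whether the labelled tissue holds its markers could not be checked. Neutrophil lineage markers had 9 rows of 7 of 15 genes, and their median per array was 0.11, -0.56 and -1.25 at 6 hours and -2.0, -0.79 and -0.89 at 24 hours. Of these rows 0 rose and 4 fell at 24 hours, against 12.4% and 8.87% of all rows. With the neighbours subtracted 2 of the neutrophil rows fell. The 3 rows of Mpo had 24-hour means of -0.87, 0.03 and -1.81. The median of the 5 chaperones was 0.28, -0.25 and -0.22 at 6 hours and -0.56, -0.49 and -0.81 at 24 hours. Replicate 1 was the highest array for the neutrophil markers and the chaperones. It was also the highest for B lineage markers and for each pathway list except collagen folding. At 24 hours the lowest array was replicate 4 for the neutrophil markers and replicate 6 for the chaperones. Plasma cell markers, of cells rich in ER, had 5 rows of 5 of 12 genes, and their median ran from -0.25 to 0.19 at 6 hours and from -0.29 to 0.32 at 24 hours, with no row called. Osteoblast and osteocyte markers had 6 rows of 5 of 16 genes, with a median of -0.01 to 0.18 at 6 hours and -0.37 to -0.04 at 24 hours. Skeletal muscle markers had 9 rows of 9 of 16 genes, all with means above 0, and a median of 0.10 to 1.22 at 6 hours and 0.10 to 0.96 at 24 hours. The part of these cell types in the chaperone ratios was not tested.

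The 24-hour means of B lineage, chondrocyte, erythroid and osteoclast markers had medians of -0.06 (7 rows), -0.56 (3 rows), 0.33 (6 rows) and -0.12 (5 rows). At 24 hours 1 B lineage row rose, 1 chondrocyte row rose and 1 fell, 2 erythroid rows rose, and 1 osteoclast row rose and 1 fell. On the osteoblast and osteocyte list 1 row rose.

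Among 10685 other rows with a single gene name and 6 values, the pattern most like the array-by-array median of the 5 chaperones was that of Arf3, a small GTPase of the Golgi, at a Pearson r of 0.992 over 6 arrays. Its ratios were much smaller, however, from -0.252 to -0.089, with a root mean square difference of 0.332 from the chaperone median. Commd2 (r = 0.991), the ubiquitin-conjugating enzyme gene Ube2e1 (r = 0.99) and the chromatin protein gene Cbx3 (r = 0.989) followed, with root mean square differences of 0.375, 0.41 and 1.598. Supv3l1, a mitochondrial RNA helicase gene, was like the chaperones in size too (r = 0.988, root mean square difference 0.061), with ratios of 0.226, -0.34 and -0.184 at 6 hours and -0.474, -0.434 and -0.786 at 24 hours. With so many rows and 6 arrays such correlations are a description of these arrays.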

How the data were processed

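The values are log2 ratios as deposited by the authors, computed from linear ratios of 2 decimals (100.0% of values). The sources used here state neither the normalization, scale and background treatment nor the extraction software. Gene names came from the platform annotation: 11813 rows carried 1 symbol, 559 several and 9074 none. Arrays held 18302 to 19961 values, and signal over background is unknown. The number of arrays limits the precision.

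Each row was fitted with limma 3.58.1 in R 4.3.3 (lmFit and eBayes, 1 mean per time, all 6 arrays, 4 residual degrees of freedom, prior 2.46 degrees of freedom and SD 0.288), requiring 2 values or more at both times, with Benjamini-Hochberg adjustment over 19326 rows and a threshold of 0.05, two-sided. The animals of each pool were separate, per the design text. The script was tested on simulated data. Sequences came from RefSeq.

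The 5 genes and all gene lists were chosen with earlier results of these data known. Named besides the 5 were 15 set genes (3 of them without a row) and, from each list, up to 2 genes with the smallest p at 24 hours, plus the 5 nearest patterns. Alternatives were centring, scaling, quantile normalization, gene means, missing-value rules, exact zeros, robust fit, array weights, each time alone, the file name prefix, each array left out, and, added after seeing the data, subtraction of the local median within 4 or 8 grid positions.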

Additional observations from a re-analysis of the deposited data

How the results depend on the processing

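The ratios of Dnajc3, Dnajb9, Canx and Pdia4 were below 0 at 24 hours under all 19 alternatives, as was the 24-hour minus 6-hour difference of all 5 genes wherever an alternative gave one. On each gene every 24-hour array was below 0 and below every 6-hour array. Fits that only changed which arrays or rows entered, or their weight, could therefore not change these signs. Since the genes were chosen on their 24-hour values, nothing is read from the count of alternatives. Hyou1 reversed to 0.07 at 24 hours with the local median within 4 positions subtracted. The median of the 5 genes at 24 hours, -0.61, became -0.43 with the local median within 4 and within 8 positions subtracted. Setting exact zeros to missing left Hyou1 out, and fitting each time alone gives no difference. The count of the 5 genes that passed at 6 hours was 0, but 1 with array weights, and 0 to 1 with an array left out. The 654 rows called at 6 hours became 7660 with array weights, 2016 after scaling to 1 median absolute deviation, 2232 after quantile normalization and 0 with each time alone, and 0 to 1727 with an array left out. The 4116 rows called at 24 hours became 2707 with each time alone, 31 with the file name prefix as a covariate, and 0 to 4961 with an array left out. The 27 pathway rows called at 24 hours became 16 after scaling to 1 median absolute deviation, 13 with each time alone, and 0 to 36 with an array left out. The cause was not tested. The rows called in the difference between the times numbered 0 under every alternative run. No paired analysis was possible because the 6-hour and 24-hour arrays share no replicate number.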
